A study of Homo sapiens with 17 samples.

Results

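The BRG1 and ARID1A binding regions of hormone-starved Nthy-ORI cells were set against each other, to ask where the ATPase of a chromatin remodeler and a subunit of one of its forms were listed at the same places. A region is an interval of the deposited peak list of its antibody, and all regions of both vehicle lists on chromosomes 1 to 22 and X entered. These were 113265 regions of 266724 on the same chromosomes in the 8 lists of the series, 64289 of them for BRG1 and 48976 for ARID1A. A BRG1 and an ARID1A region were taken as shared if they overlapped by at least 1 bp. This gave 39768 BRG1 regions without ARID1A, 24521 BRG1 regions and 28405 ARID1A regions in both lists, and 20571 ARID1A regions without BRG1.

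Nthy-ORI cells are normal human thyroid epithelium that was immortalised, a single line that stands for the tissue. Its cells were starved of hormone for 24 h in medium free of phenol red with charcoal-stripped serum, and then received 10 nM T3, the active thyroid hormone, or NaOH vehicle. The libraries are labelled 6 h, while the protocol also names 24 h. CUT&RUN, in which an antibody directs a nuclease that releases the DNA around a bound protein, was run on nuclei of 500000 cells. The BRG1 vehicle list came from 2 libraries and the ARID1A vehicle list from another 2, of 17 in the series. The other lists are from BRG1 and ARID1A with T3, and from PBRM1 and the thyroid hormone receptor TRβ with T3 and with vehicle. The 1 IgG library was not analysed here. All groups shared the starvation and the cell line. Nothing in the labels says that the 2 libraries of a group came from separate cultures. Since 1 list stood for each group, no test across replicates was possible, and the exact 95% binomial intervals given below cover counting error over regions only. Read depth is unknown from the lists.

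BRG1, the product of SMARCA4, is the ATPase that drives the mammalian SWI/SNF remodelers, which slide and evict nucleosomes. ARID1A is a DNA-binding subunit of the canonical BAF form, whereas PBRM1 and ARID2 define the PBAF form and BRD9 a smaller non-canonical form, both of which also carry the ATPase. An ARID1A region is therefore a place where the BAF form may be listed, while a BRG1 region may belong to any form. In other tissues BAF is known mostly from enhancers and PBAF from promoters.

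The classes differed at promoters, and the following windows show the sequences there. RefSeq windows (GRCh38.p14) run from 250 bases before to 50 after a gene start. The 4 shown belong to genes whose window held the summit of a region of high signal value in each class, and the capitals mark CpG dinucleotides. FILIP1L encodes a protein related to filamin-binding FILIP1, and its window (chr3:99876124-99876423, minus strand, 48 CpG) held a BRG1 summit without ARID1A. The window of ID1, an inhibitor of DNA binding by helix-loop-helix factors (chr20:31605039-31605338, plus strand, 22 CpG), met regions of both lists. The window of MGAT5B, a glycosyltransferase gene (chr17:76872397-76872696, plus strand, 6 CpG), lay in a BRG1 region that is classed as shared, although the ARID1A region it overlaps ends before the window (at 76870921). TPST1, a tyrosylprotein sulfotransferase gene (chr7:66205084-66205383, plus strand, 37 CpG), lay in an ARID1A region without BRG1.
FILIP1L: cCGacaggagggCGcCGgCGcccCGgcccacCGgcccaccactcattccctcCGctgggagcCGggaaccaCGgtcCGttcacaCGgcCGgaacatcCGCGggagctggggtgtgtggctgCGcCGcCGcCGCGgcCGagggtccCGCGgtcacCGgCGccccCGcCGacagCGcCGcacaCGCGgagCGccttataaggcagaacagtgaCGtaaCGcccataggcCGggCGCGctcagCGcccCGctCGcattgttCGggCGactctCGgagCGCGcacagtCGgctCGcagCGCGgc
ID1: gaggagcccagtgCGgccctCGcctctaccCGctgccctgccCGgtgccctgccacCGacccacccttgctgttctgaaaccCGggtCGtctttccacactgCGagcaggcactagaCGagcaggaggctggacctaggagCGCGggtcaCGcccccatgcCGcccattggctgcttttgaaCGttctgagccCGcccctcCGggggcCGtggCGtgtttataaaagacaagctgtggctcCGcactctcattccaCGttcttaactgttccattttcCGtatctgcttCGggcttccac
MGAT5B: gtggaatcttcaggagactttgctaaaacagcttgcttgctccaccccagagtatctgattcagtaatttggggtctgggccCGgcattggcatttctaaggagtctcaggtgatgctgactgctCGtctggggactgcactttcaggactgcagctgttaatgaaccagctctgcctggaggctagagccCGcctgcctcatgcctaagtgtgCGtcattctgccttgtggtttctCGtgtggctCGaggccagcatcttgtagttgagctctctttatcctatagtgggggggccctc
TPST1: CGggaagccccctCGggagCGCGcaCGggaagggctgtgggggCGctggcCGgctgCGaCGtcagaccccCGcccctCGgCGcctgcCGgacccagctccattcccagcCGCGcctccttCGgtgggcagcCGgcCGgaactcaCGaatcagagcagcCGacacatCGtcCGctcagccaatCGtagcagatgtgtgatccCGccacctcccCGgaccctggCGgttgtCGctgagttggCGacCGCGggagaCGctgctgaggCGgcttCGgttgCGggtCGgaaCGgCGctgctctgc

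The FILIP1L region spanned 3131 bp and had the authors' signal values of 34.6 and 19.5 in the 2 BRG1 libraries, with its summit, the position of highest signal, 50 bp after the gene start. At ID1 the BRG1 region spanned 9586 bp with values of 51.9 and 31.6, and its summit lay 174 bp before the start (-174). The ARID1A region there had 11.5 and 17.9, and its summit stood at -706. The MGAT5B region had BRG1 values of 42.2 and 44.7 with the summit at -16, whereas its ARID1A region (17.4 and 17.9) had the summit outside the window, at -2865. The TPST1 region spanned 1468 bp, and its ARID1A values of 17.2 and 4.25 came mostly from 1 library. These windows ran from CpG-poor MGAT5B to CpG-rich FILIP1L.

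Most BRG1 regions lay apart from ARID1A, while most ARID1A regions lay on BRG1. Of the BRG1 regions, 24521 (38.1%, 37.8 to 38.5) overlapped an ARID1A region, and of the ARID1A regions, 28405 (58.0%, 57.6 to 58.4) overlapped a BRG1 region. By length the lists shared 22.5 Mb, which was 34.1% of the BRG1 sequence (65.8 Mb) and 59.4% of the ARID1A sequence (37.8 Mb). ARID1A regions mostly sat within wider BRG1 regions. Of those in both lists, 60.7% lay wholly inside a BRG1 region, whereas 7.65% of the shared BRG1 regions lay wholly inside an ARID1A region. A BRG1 region could hold several ARID1A regions, and 4440 (18.1% of the shared ones) held 2 or more, the most being 10. These had a median width of 2394 bp, against 1132 bp for the 20081 with 1 ARID1A region. With reciprocal overlap of 50% in place of 1 bp, the shares were 19.5% of BRG1 and 25.6% of ARID1A regions.

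Strong and wide regions were more often in the other list than weak and narrow ones. In the highest decile of its list by signal value, 86.9% of BRG1 and 95.7% of ARID1A regions were shared, and in the lowest decile 13.2% and 37.7%. The BRG1 share was lower in each further decile, whereas the ARID1A share was level in the sixth and seventh (48.11% and 48.15%) and lowest in the ninth, at 33.2%. Of the 100 highest BRG1 regions, 99 overlapped ARID1A. By width, the shared part of the BRG1 list was 12.95% under 500 bp, 26.8% from 500 bp, 60.1% from 1000 bp and 90.9% from 2000 bp. For ARID1A it was 47.4%, 54.0%, 79.5% and 97.9%. Wider regions also meet a 1 bp rule more easily, and the part of width and of strength in these shares was not tested.

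**Figure D1:**
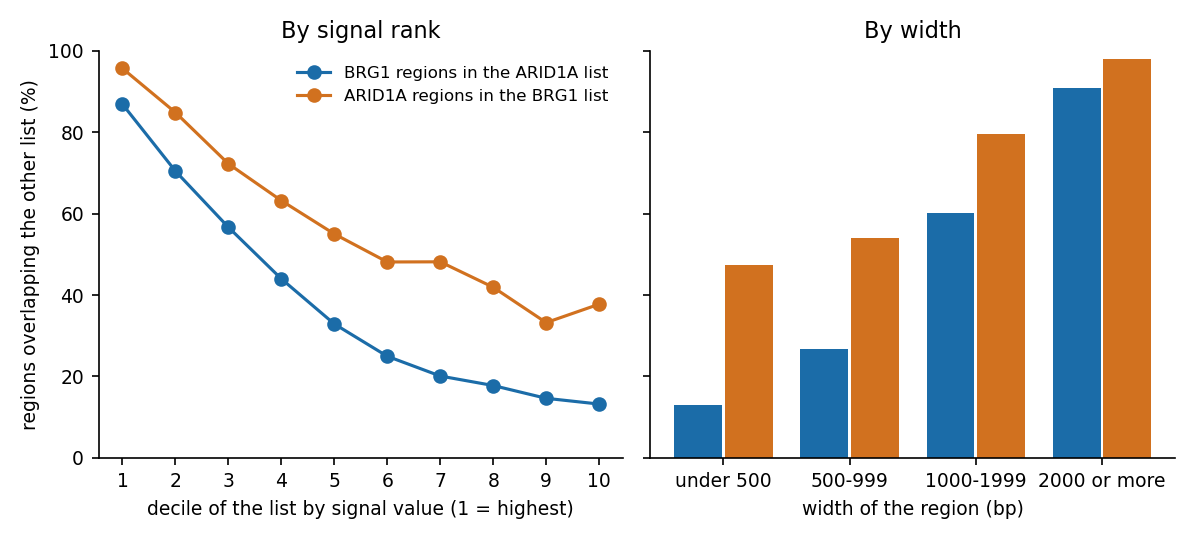
Share of BRG1 regions (blue) that overlap an ARID1A region, and of ARID1A regions (orange) that overlap a BRG1 region, by decile of the list by signal value (left) and by width in bp (right). The share ends at 13.2% for BRG1 and 37.7% for ARID1A in the lowest decile, and reaches 90.9% and 97.9% in regions of 2000 bp or more.

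Shared regions were wider at the median than regions in a single list, though the quartiles overlapped. Width also enters the 1 bp rule that set the classes, so these widths are a description. BRG1 regions without ARID1A had a median width of 593 bp (quartiles 411 to 863), shared ones 1282 bp by the BRG1 interval (807 to 1976) and 754 bp by the ARID1A interval (514 to 1092), and ARID1A regions without BRG1 589 bp (426 to 779). Regions of 4 kb or more numbered 18 among BRG1 regions without ARID1A, 860 among shared BRG1 regions, 67 among shared ARID1A regions and 0 among ARID1A regions without BRG1. The medians of the 2 classes found in a single list were 4 bp apart at the lists' own lengths. With lists of equal length they were 727 bp for BRG1 without ARID1A and 593 bp for ARID1A without BRG1.

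**Figure D2:**
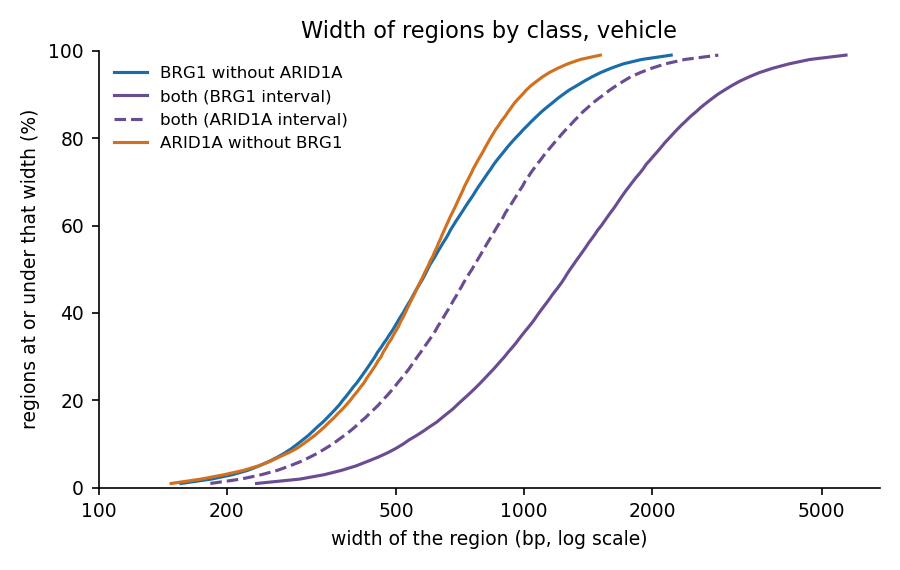
Share of regions at or under each width (bp, log scale), from the 1st to the 99th percentile, for BRG1 without ARID1A, both (solid for the BRG1 interval, dashed for the ARID1A interval) and ARID1A without BRG1. The 2 classes in a single list run together up to their medians of 593 and 589 bp, and the shared BRG1 intervals (median 1282 bp) lie to the right.

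Signal values followed the same order in each library. The median was 5.91 and 4.58 in the 2 libraries for BRG1 regions without ARID1A, and 9.81 and 7.55 for the shared BRG1 regions. In the ARID1A list the medians were 5.22 and 5.50 for shared regions, and 4.22 and 4.55 for regions without BRG1. The quartiles overlapped between classes, at 4.60 to 8.01 and 6.71 to 14.4 for BRG1 without ARID1A and for shared BRG1 regions in the first of the 2 BRG1 libraries. Signal values of different antibodies are not on a common scale and were not compared. An irreproducible discovery rate of at most 0.01, which marks regions ranked alike in both libraries, was met by 59.4% of BRG1 regions without ARID1A, 88.4% of shared BRG1 regions, 61.1% of shared ARID1A regions and 28.3% of ARID1A regions without BRG1.

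The rank correlation between the 2 libraries was higher in shared regions than in the rest. Across BRG1 regions, Spearman's rank correlation between the libraries was 0.21 without ARID1A (39768 regions) and 0.56 in shared regions (24521). Across ARID1A regions it was 0.27 in shared regions (28405) and -0.21 without BRG1 (20571). The regions of a class share both libraries and passed the same selection on reproducibility, and these values describe the lists only. The lowest listed sum of both values was 7.22 for BRG1 and 6.92 for ARID1A. How the selection of the lists bears on these correlations was not tested, so the value of -0.21 is no measure of agreement. When the BRG1 list was shortened to the length of the ARID1A list, the shares were 45.6% of BRG1 and 54.7% of ARID1A regions by the summed signal value, and 44.8% and 53.9% by the value of either library alone, a setting chosen after the data were seen.

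Summit distances were taken only where regions of the lists overlapped, which by itself limits how far apart the summits can lie. The distance that overlap alone would give was not computed. From each shared BRG1 summit to the nearest overlapping ARID1A summit the median distance was 172 bp (quartiles 70 to 358), and 63.1% lay within 250 bp. Over all 30353 overlapping pairs the median was 242 bp, and over the 17161 pairs of a single BRG1 and a single ARID1A region it was 151 bp. Distances grew with width, with medians of 155 bp in BRG1 regions under 500 bp and 1258.5 bp in those of 4000 bp or more. How far a summit moves between libraries of the same antibody was not analysed here, so these distances have no measured error beside them.

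**Figure D3:**
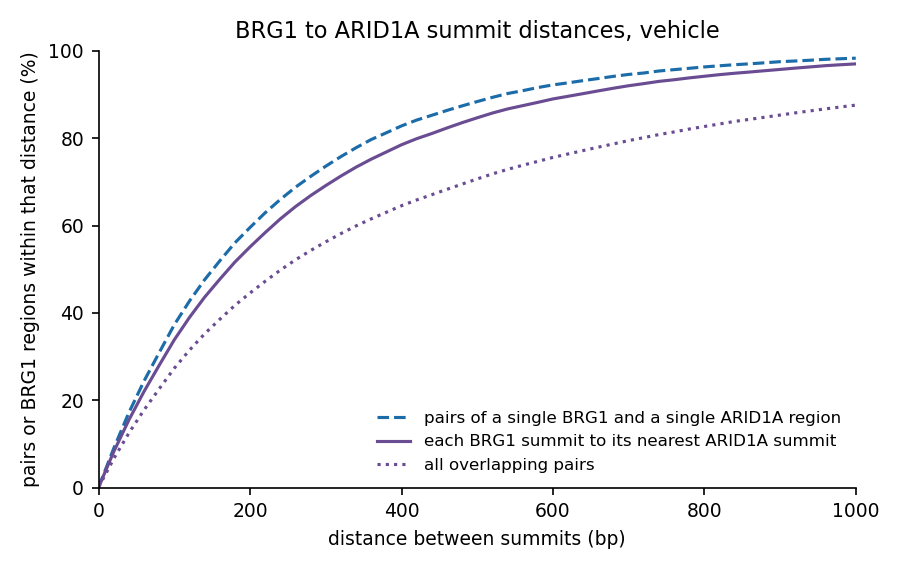
Cumulative share (%) of pairs or BRG1 regions within each distance between a BRG1 and an ARID1A summit (bp). Pairs of a single BRG1 and a single ARID1A region (blue dashes, median 151 bp) rise first, each BRG1 summit to its nearest ARID1A summit (solid purple, 172 bp) runs just below, and all overlapping pairs (dotted, 242 bp) lie lowest.

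Most regions in a single list lay more than 1 kb from the other list. The gap from a BRG1 region without ARID1A to the nearest ARID1A region had a median of 5459 bp, and 22.8% were within 1 kb. From an ARID1A region without BRG1 to the nearest BRG1 region the median was 8632 bp, and 14.7% were within 1 kb. Allowing a gap of 500 bp raised the shared part to 46.3% of BRG1 and 61.7% of ARID1A regions.

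Shared regions lay at gene ends more often than regions in a single list. The summit lay within 1 kb of either end of an annotated gene (protein-coding or lncRNA) in 15.7% of BRG1 regions without ARID1A (15.4 to 16.1), in 37.7% of shared BRG1 regions (37.1 to 38.3) and 37.2% of shared ARID1A regions, and in 11.6% of ARID1A regions without BRG1 (11.2 to 12.04). Median distances were 8.24 kb, 2.91 kb, 2.89 kb and 8.48 kb in the same order. The order of the 2 classes in a single list depended on the overlap rule. With reciprocal overlap of 50% their shares were 19.98% for BRG1 and 21.3% for ARID1A, and with windows of 250 bp on each side of the summit they were 17.1% and 16.9%. The higher share in shared regions was also present among regions of like width and rank, a comparison chosen after the data were seen. Among BRG1 regions under 500 bp, 19.1% of shared regions and 12.1% of those without ARID1A lay at a gene end, and from 2000 bp 42.9% and 26.4%. Among ARID1A regions under 500 bp the shares were 28.5% and 11.1%, and in the highest quintile by rank 44.3% and 15.4%.

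The difference between the classes was at gene starts. A protein-coding start lay within 1 kb of the summit in 9.67% of BRG1 regions without ARID1A (9.38 to 9.97), 28.8% of shared BRG1 regions, 28.4% of shared ARID1A regions and 3.96% of ARID1A regions without BRG1 (3.69 to 4.23). The other end of such a gene lay within 1 kb in 1.91%, 2.71%, 2.70% and 3.06%. The starts are those with a RefSeq window, which 15811 of 19970 protein-coding genes had. Shares inside a protein-coding gene ran from 57.8% for ARID1A without BRG1 to 61.8% for BRG1 without ARID1A, and whether these positions are exonic or intronic is not known here.

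Around starts the summits sat slightly downstream. Among summits within 1 kb the median position was 72 bp after the start for BRG1 without ARID1A (3847 regions), 37 bp for shared BRG1 (7050), 5 bp for shared ARID1A (8067) and 87 bp for ARID1A without BRG1 (814). Of these summits 50.2%, 60.5%, 59.9% and 35.7% were within 250 bp. In 8574 overlapping pairs at starts the BRG1 summit was a median of 25 bp further into the gene (quartiles -203 to 259). The shift was positive in 53.3% of pairs and small beside its spread between pairs.

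**Figure D4:**
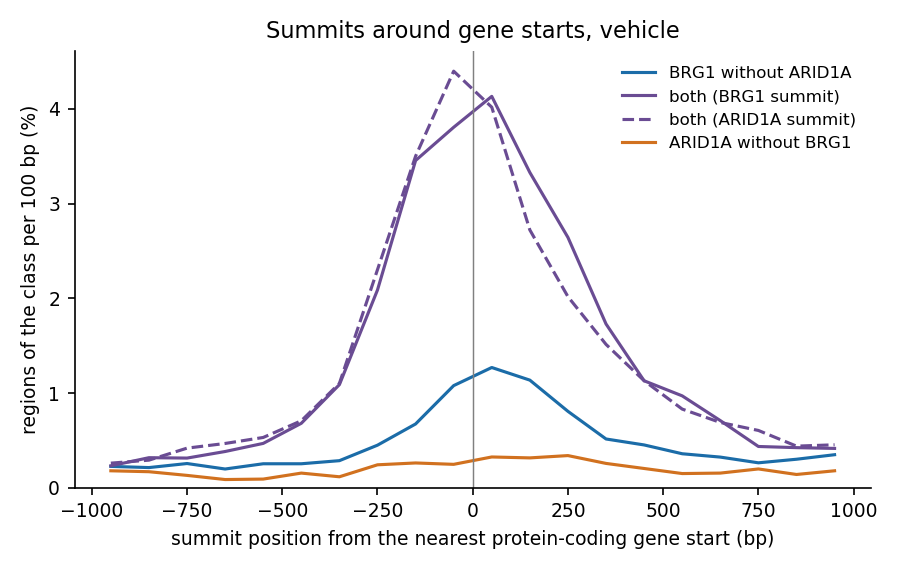
Share of the regions of each class (%) with a summit in each 100-bp step from 1000 bp before to 1000 bp after the nearest protein-coding gene start (grey line). Shared regions (purple) peak at the start with 28.8% of BRG1 and 28.4% of ARID1A summits in the span, BRG1 without ARID1A holds 9.67%, and ARID1A without BRG1 (3.96%) has no sharp peak.

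The CpG content of promoters went with the class. A window took the class of the region it met. Where it met regions of several classes, both came first, then BRG1 without ARID1A. A window in both thus lay in a shared region, of which the other antibody's interval need not reach the window. Of 22011 distinct windows, 15.1% lay in BRG1 regions without ARID1A, 44.2% in both, 2.23% in ARID1A regions without BRG1 and 38.5% in neither list. The median number of CpG per window was 23, 28, 20 and 6 in these classes, and the GC content 63%, 67.7%, 65% and 52.7%. Windows that themselves met a region of each antibody, a count chosen after the data were seen, were 39.4% of all, 19.6% met a BRG1 region alone and 2.59% an ARID1A region alone. The share in both was higher with each step in CpG number, at 4.72% of windows with 0 to 4 CpG and 71.8% of those with 40 or more. BRG1 without ARID1A instead was highest at intermediate numbers, with 23.5% of windows with 15 to 24 CpG and 14.1% at 40 or more. ARID1A without BRG1 stayed between 1.07% and 3.44% in every step.

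Short motifs were searched on both strands. The GC box GGGCGG, the site of SP and KLF factors, was present in 63.2% of windows in BRG1 without ARID1A, 77.4% in both, 60.5% in ARID1A without BRG1 and 29.0% in neither list, beside 56.3% of all windows. The ETS core CCGGAAG was in 19.02%, 17.5%, 8.76% and 5.06% (all windows 12.7%), and the TATA box TATAAA in 6.72%, 4.30%, 6.92% and 16.7% (all 9.49%). The AP-1 site TGANTCA was in 4.68%, 4.54%, 3.87% and 8.73% (all 6.16%). GGGCGG and CCGGAAG hold CpG themselves, and the part of CpG number in their shares was not tested. A match is a description of letters in the window and not of binding.

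ARID1A regions without BRG1 were placed unevenly along chromosomes, a pattern seen after the data were examined. Summits within 5 Mb of the outermost annotated gene of their chromosome made up 10.2% of BRG1 regions without ARID1A (9.91 to 10.5), 14.2% of shared BRG1 and 14.3% of shared ARID1A regions, and 24.7% of ARID1A regions without BRG1 (24.1 to 25.3), beside 13.4% of protein-coding genes. Chromosome 19, which is rich in genes, held 3.08%, 5.59%, 5.44% and 7.30%. It was the 1 chromosome with more ARID1A regions without BRG1 (1502) than BRG1 regions without ARID1A (1223), a ratio of 0.814, and the ratio was highest on chromosome 6, at 3.97. At an irreproducible discovery rate of at most 0.01 the share near chromosome ends was 10.4%, 14.1% (BRG1 list) and 27.5%.

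The BRG1 regions of highest signal without ARID1A were several kilobases wide and lay mostly inside genes. The first was inside ZFHX3, a transcription factor gene, 273 kb from an end of a protein-coding gene (chromosome 16, 73052704 to 73058748, hg38), with values of 59.5 and 20.8 in the 2 libraries. The next lay inside RUNX1, a runt-family transcription factor gene (chromosome 21, 34881029 to 34885673), with 38.7 and 26.9. Those inside SYNGR1, a synaptic vesicle protein gene (28.7 and 32.6), and HMGXB3, an HMG-box gene (30.7 and 27.4), were even between libraries. Those inside REPS1, a gene of endocytosis (48.1 and 12.5), and ADAMTS12, which encodes a secreted metalloprotease (39.1 and 19.3), rested more on 1 library. The widest, 6383 bp, was inside DCBLD2, a membrane receptor gene, with 20.2 and 28.3, and another wide region of 5454 bp lay inside UGCG, the glucosylceramide synthase gene. Even so, these ranked no higher than place 36 in the BRG1 list.

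The regions ranking highest in both lists were of very different shapes. A region inside CXXC5, which encodes a zinc finger protein that binds unmethylated CpG (chromosome 5, 139647969 to 139662989), spanned 15021 bp, held 10 ARID1A regions and had BRG1 values of 42.6 and 63.3. The highest of its ARID1A regions had 29.3 and 50.6. Regions near KRT80, a keratin gene (BRG1 49.8 and 38.2, ARID1A 26.1 and 32.2), and LAMC1, a laminin chain gene (BRG1 88.4 over both libraries, ARID1A 19.9 and 34.8), were 9668 and 5809 bp wide, with summits 15 and 17 bp apart. Other wide ones lay inside BCL9L, a beta-catenin coactivator gene (13235 bp), and SDC4, which encodes the proteoglycan syndecan (13173 bp).

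In contrast, 3 of the highest-ranked shared regions were short. The region inside ALLC, the allantoicase gene, was 195 bp wide with BRG1 values of 55.2 and 121 and ARID1A values of 73.9 and 22.4, the first place in both lists, and overlapped a region in all 8 lists of the series. Those inside DONSON, a DNA replication gene (104 bp; BRG1 39.1 and 68.9, ARID1A 37.6 and 14.5), and AVPI1 (122 bp; 30.8 and 90.9, and 35.7 and 14.1) were in 6 and 7 of the 8 lists. Their summits in the BRG1 and ARID1A lists were 1 bp apart. Shared BRG1 regions overlapping all 8 lists numbered 163 (0.665%), and leaving out such regions gave shares of 38.0% of BRG1 and 57.6% of ARID1A regions.

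ARID1A regions without BRG1 had modest values. The first lay 6.31 kb from an end of AQP1, a water channel gene (chromosome 7, 30904321 to 30906663), with 13.6 and 18.8 in the 2 libraries, at place 269 of the ARID1A list. The next was 32.0 kb from ZNF383, a zinc finger gene on chromosome 19 (10.9 and 16.9). Others lay inside ADGRB1, an adhesion receptor gene (9.02 and 17.4), near RTP5 (13.6 and 11.7), and inside QTRT1, a gene of tRNA modification (9.37 and 15.7), the last with a gene end 0.602 kb away. A region of 3896 bp on chromosome 21 (8387737 to 8391632; 18.9 and 8.65) had no protein-coding gene end within 100 kb and was the widest of the class. The next widest lay near LOC107986800 (12.3 and 4.40) and inside THOP1, a peptidase gene (9.84 and 12.6).

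Some genes collected many regions of a single list, and not the same ones. Counting regions in the gene and 25 kb on each side, BRG1 regions without ARID1A were most numerous at ASAP1, an ARF GTPase-activating protein gene, with 55 beside 11 shared and 2 ARID1A regions without BRG1. PTK2, the focal adhesion kinase gene, had 51, 15 and 4, and TRIO, a guanine nucleotide exchange factor gene, 50, 17 and 2. CRIM1 (44, 20 and 6) and EXT1, which encodes a heparan sulfate polymerase (44, 8 and 1), followed. ARID1A regions without BRG1 were most numerous at GSE1 (40, beside 26 BRG1 regions without ARID1A and 42 shared) and PTPRN2, a receptor phosphatase gene (40, beside 3 and 7). SORCS2, a sortilin-family receptor gene, had 39 beside 13 and 16, TTC34 had 33 beside 2 and 3, and CAMTA1, a calmodulin-binding factor gene, had 32 beside 13 and 15. Gene length was not taken into account here, and PTPRN2 and CAMTA1 spanned 1049 and 984 kb, while TTC34 spanned 165 kb. Place along the chromosome was not taken into account either. TTC34 and CAMTA1 started at 2636986 and 6785454 of chromosome 1, and SORCS2 at 7192538 of chromosome 4. The distance of these genes to the chromosome ends was not computed.

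Near genes the classes mixed. Of the 19970 protein-coding genes, 69.7% had a BRG1 region without ARID1A within 25 kb of an end, 67.9% a shared one, 51.9% an ARID1A region without BRG1 and 13.3% none. All 3 classes occurred at 7141 genes (35.8%), while 1687 had BRG1 without ARID1A and no other class, 1290 shared regions and no other class, and 960 ARID1A without BRG1 and no other class. Among the 15811 genes with a promoter window, 47.5% had the promoter in both, 15.8% in BRG1 without ARID1A, 2.33% in ARID1A without BRG1 and 34.3% in neither. A gene with several windows took the first class that any of them had, in the order just given. A window itself met a region of each antibody at 43.8% of these genes.

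Promoters of the listed cell cycle, YAP pathway and mesenchymal genes that had a window were mostly in both lists. Beside the 47.5% of all genes, it was 14 of 15 cell cycle genes with a window, 9 of 9 genes of YAP, TAZ, TEAD and their targets, and 8 of 9 mesenchymal and matrix genes. The values that follow are those of the region of best rank within 25 kb of an end of the gene, in the 2 libraries. Each antibody was ranked on its own, so the BRG1 and ARID1A regions of a gene need not overlap. At E2F2, CDKN1B, KRT8, CLDN4, FOSL2, PBRM1, SMARCA2 and SLC5A5, here and below, they did not. Near E2F2, a cell cycle transcription factor gene, the BRG1 region of rank 5 spanned 8609 bp with 51.2 and 54.5, and the ARID1A region had 11.9 and 7.98. CDKN1B, a CDK inhibitor gene, had BRG1 values of 22.1 and 32.7 and ARID1A values of 8.42 and 16.1. AMOTL2, a YAP-binding angiomotin gene, had 37.1 and 34.7, and 10.3 and 17.8. VIM, the vimentin gene, had 34.2 and 20.2, and 10.5 and 5.93. The exceptions among the genes of these lists with a window were RB1, whose RefSeq window met neither list, and ZEB2, in BRG1 without ARID1A. Even so, shared regions of BRG1 (chromosome 13, 48302631 to 48304378) and ARID1A (48303259 to 48303881) covered an annotated end of RB1, at 48303751. The class of RB1 therefore holds for its window only. With genes that lack a window counted too, a shared region lay within 25 kb of an end of 20 of 20 cell cycle genes. It did so for 11 of 12 YAP, TAZ and TEAD genes and 13 of 16 mesenchymal and matrix genes, beside 67.9% of all genes. WWTR1, SNAI2 and COL1A2 had only BRG1 without ARID1A within 25 kb, and COL3A1 had no region of either list. Of the epithelial genes with a window, 4 of 7 had the promoter in both lists. Among them were KRT8 (BRG1 38.8 and 24.3, ARID1A 17.4 and 26.3) and CLDN4, a claudin gene (25.7 and 13.98, and 24.5 and 24.6). The promoters of DSP and CLDN1 were in BRG1 without ARID1A, and that of CLDN7 in neither list. A shared region lay within 25 kb of an end of 11 of the 14 epithelial genes, beside 67.9% of all genes. CDH1, GRHL2 and DSP had none.

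Ribosomal protein promoters were more often in BRG1 without ARID1A. Of 13 with a window, 7 were in that class (RPL3, RPL13, RPL4, RPL27, RPS3, RPS6 and RPL32), beside 15.8% of all genes, 5 were in both and 1 in neither. RPS14 was in both, with the strongest regions of the list near it (BRG1 55.3 and 20.5, ARID1A 16.97 and 50.6). Of 11 AP-1 and related genes with a window, 7 were in both and 3 in BRG1 without ARID1A, namely ATF3, FOSB and FOS. FOSL2, which encodes a Fos-family factor, had BRG1 values of 27.2 and 56.7 and ARID1A values of 9.14 and 14.5 in a separate region. JUNB had 25.7 and 20.9, and 23.6 and 12.5.

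Most genes of the remodeler itself had their promoter in both lists. Of 23 SWI/SNF subunit genes with a window, 17 had the promoter in both lists, 5 in BRG1 without ARID1A and 1 in neither, beside 47.5%, 15.8% and 34.3% of all genes. The windows of 13 met a region of each antibody, among them SMARCA4, SMARCA2 and PBRM1, while those of ARID1A, ARID1B and BRD9 met the BRG1 interval of a shared region alone. SS18, whose promoter was in BRG1 without ARID1A, had no ARID1A region within 25 kb. The strongest BRG1 region within 25 kb of ARID1A had 25.3 and 23.03, and the ARID1A region 3.67 and 9.46. At ARID1B the BRG1 region had 34.9 and 20.02. At PBRM1 it had 17.4 and 7.12, beside ARID1A values of 4.54 and 11.8 in a separate region. SMARCA4 had its strongest BRG1 region (26.9 and 13.8) in the class without ARID1A, and 10, 2 and 9 regions of BRG1 without ARID1A, both and ARID1A without BRG1 in and around the gene. SMARCA2, the alternative ATPase, had 8.95 and 9.21 for BRG1 and 7.37 and 14.7 for ARID1A, in separate regions. ARID2 had 13.7 and 20.2, and 4.36 and 7.18.

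Thyroid genes were mostly in neither list at their promoters. Of 13 thyroid lineage and hormone synthesis genes with a window, 4 had the promoter in both lists, all of them genes of transcription factors (PAX8, HHEX, FOXE1 and GLIS3), and 9 had it in neither, beside 47.5% and 34.3% of all genes. The 9 include NKX2-1, a defining thyroid transcription factor gene. The PAX8 window itself met a BRG1 region alone. PAX8 had BRG1 values of 35.3 and 15.95 in a region without ARID1A, and its strongest ARID1A region, shared with BRG1, had 20.9 and 9.30. FOXE1 had 18.1 and 18.4 for BRG1, and 9.96 and 8.72 for ARID1A, and HHEX 8.58 and 12.3, and 7.34 and 15.4. NKX2-1 had no BRG1 region within 25 kb, and the ARID1A values there were 3.03 and 5.50. At TG, the thyroglobulin gene, BRG1 had 3.94 and 4.64 and ARID1A 5.99 and 3.02 within 25 kb of an end, in separate regions. In and around the whole TG gene lay 13 BRG1 regions without ARID1A, 3 shared and 2 ARID1A regions without BRG1. TSHR, the thyrotropin receptor gene, had a shared region nearby (BRG1 17.04 and 14.7, ARID1A 4.36 and 5.73) with its promoter in neither list. At SLC5A5, the iodide transporter gene, BRG1 had 9.40 and 6.82 and ARID1A 8.92 and 3.64, again in separate regions. Peak lists do not measure expression, so the label of a thyroid epithelial cell can be set only against regions near these genes.

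Promoters of other lineages were mostly in neither list. None of 8 liver genes with a window was in both, 1 (SERPINA1) was in BRG1 without ARID1A and 7 were in neither, beside 47.5% of all genes in both and 34.3% in neither. For blood genes it was 0 of 4 in both and 3 in neither, and for neuronal genes 2 of 9 in both and 5 in neither. At SERPINA1 an ARID1A region without BRG1 (chromosome 14, 94390206 to 94391079) also covered an annotated end of the gene, at 94390635. Regions nearby were still common, since 7 of 12 blood genes and 7 of 12 neuronal genes had a shared region within 25 kb, beside 67.9% of all genes, and 3 of 12 liver genes did. An ARID1A region without BRG1 lay within 25 kb of 11 of 12 blood, 7 of 12 neuronal and 4 of 12 liver genes, beside 51.9% of all genes. Of nuclear receptor and coregulator genes 13 of 18 had the promoter in both. THRA, a thyroid hormone receptor gene, had its promoter in BRG1 without ARID1A and a strong shared region nearby (BRG1 21.9 and 24.0, ARID1A 6.63 and 23.4). THRB, the TRβ gene, had its promoter in both (8.25 and 10.2, and 8.33 and 5.45), and KLF9, a thyroid hormone-responsive gene, in neither, with a shared region nearby (9.24 and 20.3, and 5.24 and 10.9).

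The classes recurred to different extents in lists that did not define them. With T3, the BRG1 list held 60.1% of BRG1 vehicle regions without ARID1A (59.6 to 60.5), 88.1% of shared BRG1 regions (87.6 to 88.5) and 7.18% of ARID1A regions without BRG1. The ARID1A T3 list held 20.2%, 73.0% and 14.3% (13.8 to 14.7). ARID1A regions without BRG1 were thus rarely listed again for either subunit, and 80.8% of them were in neither T3 list, against 35.7% of BRG1 regions without ARID1A and 7.65% of shared BRG1 regions. Among ARID1A regions of like width or rank the order was the same. In the highest quintile by rank 91.5% of shared regions and 34.0% of those without BRG1 were in the ARID1A T3 list, and in the lowest quintile 51.3% and 10.0%. Among BRG1 regions of like width or rank the order also held in the BRG1 T3 list, but the gap was smaller than over all regions. In the highest quintile by rank 99.3% of shared regions and 97.3% of those without ARID1A were listed again. In the third quintile it was 82.3% and 68.2%, and in the lowest 46.3% and 37.8%. With T3 itself the lists overlapped in 43.5% of BRG1 and 64.6% of ARID1A regions.

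**Figure D5:**
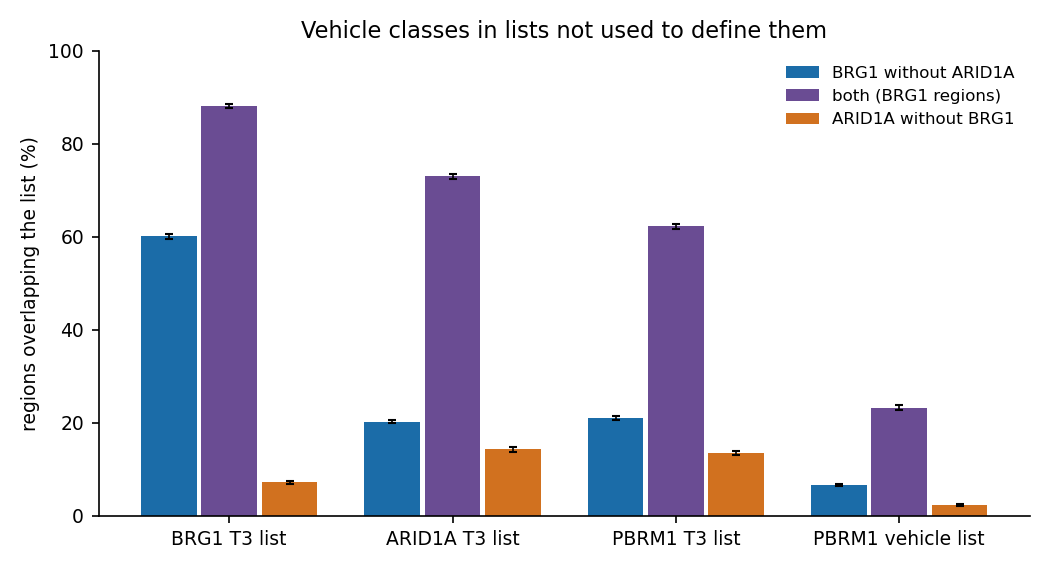
Share (%) of BRG1 without ARID1A (blue), both (purple, BRG1 regions) and ARID1A without BRG1 (orange) vehicle regions that overlap the BRG1 T3, ARID1A T3, PBRM1 T3 and PBRM1 vehicle lists, with exact 95% binomial intervals. Shared regions are highest in each of these lists, and ARID1A without BRG1 reaches 14.3% in the ARID1A T3 list.

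PBRM1, the PBAF subunit, was listed at a larger share of shared regions than of regions in a single list. Its vehicle list held 6.65% of BRG1 regions without ARID1A, 23.2% of shared BRG1 regions and 2.28% of ARID1A regions without BRG1, and its T3 list 21.0%, 62.2% and 13.4%. TRβ regions were rarer, with 1.60%, 17.3% and 1.57% in the T3 list and 0.312%, 2.93% and 0.763% in the vehicle list. The PBRM1 and TRβ lists differ in length between conditions, so their shares were not compared across conditions. Shared BRG1 regions were also wider (median 1282 bp, against 593 and 589 bp), and wider regions meet a 1 bp rule more easily. The PBRM1 and TRβ shares were not compared among regions of like width or rank.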

How the data were processed

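CUT&RUN was run in Nthy-ORI cells with 2 libraries per antibody and condition. Per the submitters' processing notes, CASAVA 1.7, Trim Galore, Bowtie2, MACS2 and hg38 were used, and no parameters or read depths are given in the sources used here. The authors deposited 1 narrowPeak list per group, with the layout of the IDR method. The deposited signal value of a region is the sum of those of its 2 libraries. The deposited −log10 of the irreproducible discovery rate showed rates of at most 0.05. Which column belongs to which numbered library is not stated, and 60 per-library columns (positions in all lists, and signal in the other 6) were not used. The planned distance between the summits of a list's 2 libraries, which needs the position columns, was not computed.

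BRG1 and ARID1A vehicle regions on chromosomes 1 to 22 and X were kept (64289 of 64393 and 48976 of 49267). Overlap needed 1 bp. Gene ends and promoter windows came from RefSeq tables of GRCh38.p14, the same build as hg38, and all 197 gene list entries matched. Interval counting was tested on simulated lists. Shares have exact (Clopper-Pearson) 95% intervals, which cover counting error only. Neighbouring regions are not independent, so no p-value was computed. The same holds for a fold between groups. Python 3.11.15, numpy 2.4.6, pandas 2.3.3, scipy 1.17.1 and matplotlib 3.10.9 were used.

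The classes and gene lists were chosen with earlier results of these data known. Genes named were 18 always named, of which 1 is not reported here; the 6 regions of highest signal (for both, lowest rank sum) and the 3 widest per class, by the nearest protein-coding gene end within 100 kb; the 5 genes with most regions of each class in a single list; up to 4 members of each gene list with the highest-ranked regions, of which some are shown; and genes with a promoter holding the summit of a region of highest signal. Ribosomal, AP-1, RB1 and ZEB2 genes listed by promoter class, and the epithelial genes other than KRT8 and CLDN4, were named after their values were seen. So were WWTR1, SNAI2, COL1A2 and COL3A1. Alternatives were other overlap rules, stricter or equal-length lists, ranking by 1 library, and other gene windows.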

Additional observations from a re-analysis of the deposited data

How the results depend on the processing

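No paired analysis was possible because each group had a single list made from both libraries and no test was run. BRG1 regions in both lists stayed wider than BRG1 regions without ARID1A under each alternative that gave a width, and more often at gene ends under each run; shared ARID1A intervals were not recomputed. Of 96 alternative values, 24 lay within the interval of the main value or within 1.5 times a main count. Values below are for BRG1 without ARID1A, both (BRG1 list) and ARID1A without BRG1, after the shares of BRG1 and ARID1A regions in the other list, unless named. The cause of each move was not tested.

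Reciprocal overlap of 50% gave shared parts of 19.5% and 25.6%, a summit distance of 140 bp, widths of 676, 1165 and 603 bp, gene-end shares of 19.98%, 41.2% and 21.3%, and T3 shares of 38.3%, 68.2% (both, BRG1 list), 60.1% (both, ARID1A list) and 17.9%. A 500 bp tolerance gave 46.3% and 61.7%, 235 bp, a width of 1114 bp for both, and gene-end shares of 15.02%, 34.7% and 10.9%. Windows of 250 bp on each side of the summit gave 33.0% and 43.6%, 139 bp, and 17.1%, 38.4% and 16.9%; width has no value there. A rate of at most 0.01 gave 33.0% and 71.1%, 184 bp, 815, 1605.5 and 795 bp, 21.0%, 42.5% and 14.4%, and T3 shares of 64.5%, 90.9% and, for both in the ARID1A list, 74.0%. Lists of equal length gave 45.6% and 54.7%, 727, 1380 and 593 bp, and 17.02%, 39.2% and 12.3%. Gene ends within 3 kb gave 31.1%, 50.4% and 27.3%, and protein-coding genes alone 11.6%, 32.1% and 7.65%.

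The planned leaving out of a library by its intervals was not run, since the libraries' position columns were not used. Instead, after seeing the data, lists of equal length were ranked by the value of 1 library, with the intervals of both. The ranges were 44.8% and 53.9% shared (44.8281 to 44.8362 and 53.8815 to 53.906), 169 to 170 bp between summits, widths of 678 to 698, 1389 to 1390 and 593 bp, and gene-end shares of 16.8% to 16.9%, 38.96% to 39.2% and 12.8% to 12.99%. Others added after seeing the data were the summit distance in pairs of single regions (151 bp) and a chromosome-end window of 10 Mb (18.5%, 23.3% and 34.9%). Genes within 5 kb numbered 9273 for BRG1 without ARID1A and 5247 for ARID1A without BRG1, against 13914 and 10367 within 25 kb. Depth is unknown and limits what the absence from a list can mean.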
